A study of Citrus trifoliata with 6 samples.

Results

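Lipases and phospholipases were examined in lateral roots of Poncirus trifoliata colonized by the arbuscular mycorrhizal fungus Glomus versiforme (Gv) and in control roots without the fungus (Ck). Genes were taken as members when the best protein hit listed for them in the deposited tables contained the word lipase, GDSL or patatin. The rule gave 60 of the 22589 genes with at least 1 read. By the wording of the hit they comprised 14 GDSL esterase/lipases, 20 triacylglycerol and alpha/beta lipases, 7 patatins, 5 phospholipases A, 5 phospholipases C and 9 phospholipases D. The rule reads names and not sequences, and for 11510 genes (51.0%) the hit text was uninformative, such as hypothetical or predicted protein, so lipases among those are not counted here.

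Each group held 3 libraries. Seedlings of both groups grew in sterile sand with a nutrient solution low in phosphorus (20 μM). The Gv pots received inoculum with about 3000 spores each, and the control pots received none. Whole lateral roots were taken at 3 months post-inoculation, and each biological replicate pooled at least 9 plants from different pots. Cells with arbuscules were thus mixed with all other root cells, and a change in the number of such cells and a change of message per cell cannot be told apart in these data.

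Lipases release fatty acids from acylglycerols, and GDSL enzymes are a plant-rich family of esterases and lipases named after their GDSL motif. Patatins and phospholipases A free fatty acids from membrane lipids, phospholipases C leave diacylglycerol and phospholipases D leave phosphatidic acid. In arbuscular mycorrhiza the plant feeds the fungus with lipids made in cells with arbuscules, and under low phosphorus plants replace part of their phospholipids with lipids free of phosphorus. Both processes involve acyl lipids, which is why the members were compared between colonized and control roots. The study describes the supply to the fungus by genes of fatty acid synthesis, and a part of lipases in it was not tested here.

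The depth of the libraries ran from 4.34 M to 4.71 M reads on genes. Of the 60 members 46 had reads in all 6 libraries, 17 had a mean level of at least 10 RPKM (reads on a gene scaled by its length and by all reads on genes) and 17 had a mean under 1. The members took between 0.274% and 0.346% of the reads on genes in Gv and between 0.272% and 0.317% in Ck. Libraries of the number 3 stood apart from the other 4, and same-numbered libraries deviated together, as did crossed pairs of the numbers 1 and 2. Values with the replicate number as a block are therefore given beside those without it. The 5 genes listed as endodermis markers, chosen by the words Casparian strip or scarecrow in their hits, were all read. Their summed level was 19.7 to 35.4 RPKM in Gv and 20.9 to 28.3 in Ck. The word scarecrow can also match scarecrow-like proteins, so the sum does not measure endodermis alone. The 8 genes listed as green tissue markers, which roots were assumed to lack, were read too, at 102 to 144 RPKM in Gv and 111 to 126 in Ck, and the ranges of the groups overlapped.

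A few lipase genes stood far above their control levels in colonized roots, and 33 of the 44 members tested had log2 fold changes under 0.5 in size. A member was called when edgeR's quasi-likelihood test gave an adjusted p under 0.05 and at least a 2-fold difference in either direction, and 16 members had too few reads for it. The test without a block called 0 members higher (0% of all 16281 genes tested) and 0 lower (0%). At an unadjusted p under 0.05 it gave 4 members higher (3.0% of all genes) and 2 lower (1.57%). With the replicate block edgeR called 2 members higher (0.958% of all genes), a GDSL gene and a triacylglycerol lipase gene, and 0 lower (0.0369%). DESeq2 called 3 members higher (1.15% of genes with an adjusted p) and 0 lower (0.0301%), and a re-implemented NOISeq criterion called 3 higher (1.35%) and 1 lower (0.323%).

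The median log2 fold change of the 44 members was -0.01, equal to the -0.01 of all genes tested, with 21 members above 0 and 23 below. In 75.0% of the tested members the log2 fold change was under 0.5 in size, against 88.2% of all genes. The 16 members without enough reads never exceeded 13 reads in a library and gave at most 47 reads over the 6 libraries. They comprised 6 GDSL genes, 4 patatins, 2 phospholipases A, 1 phospholipase C, 1 phospholipase D and 2 lipases of the triacylglycerol and alpha/beta group.

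**Figure D1:**
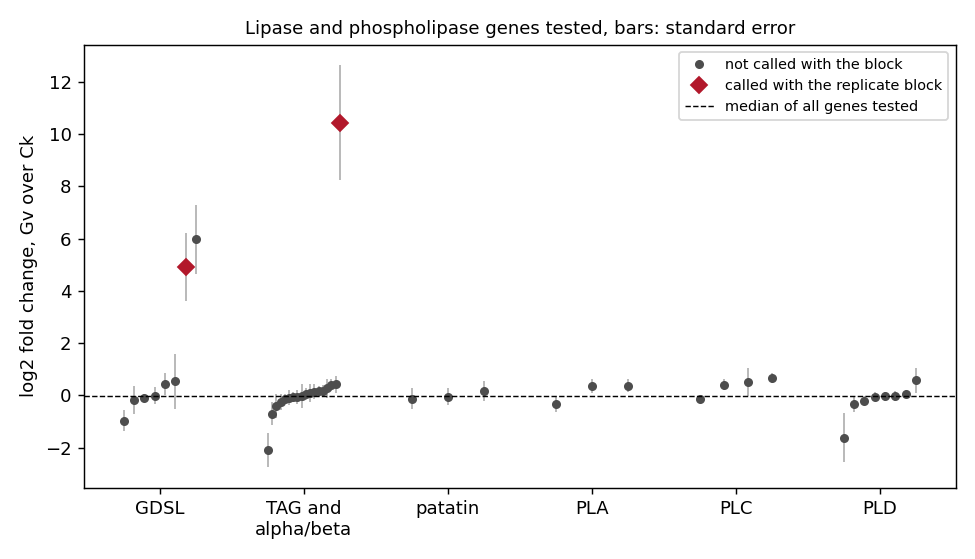
The log2 fold change of Gv over Ck is plotted for the 44 tested members by group, with the standard error of each as a bar and the median of all genes as a dashed line. The 2 members called with the replicate block, drawn as diamonds, and Cs6g19840 lie above 4, while the rest lie between -2.10 and 0.68. The highest point, Cs2g20450, had 0 reads in Ck, so its plotted value depends on the prior count of the fit.

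Among the members, the largest difference in level was that of a GDSL gene. Cs4g06810, whose hit is GDSL esterase/lipase 5 of grapevine, had 288, 346 and 2435 reads in Gv1, Gv2 and Gv3 and 5, 16 and 86 reads in Ck1, Ck2 and Ck3. Every Gv library lay above every Ck library, and in both groups the library of the number 3 was the highest. The mean level was 99.1 ± 120 RPKM (SD, n = 3) in Gv and 3.30 ± 4.09 in Ck. The pooled counts gave a 29.3-fold ratio with a 95% counting interval of 24.2 to 35.9, which covers counting error only and not the spread between replicates. With the replicate block the gene rose by 4.92 on the log2 scale in edgeR's test (adjusted p = 0.00229). Without the block the log2 fold change was 4.91 ± 1.30 (SE) with an adjusted p of 0.580, and without Gv3 it was 3.18 with an adjusted p of 0.614. Without Ck3 it was 6.62 with an adjusted p of 0.463, and without both libraries of the number 3 it was 4.90 with an adjusted p of 0.00279. In DESeq2 the adjusted p was 0.0236.

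Cs6g19840, with a hit to GDSL esterase/lipase 7-like of soybean, had 16, 30 and 161 reads in Gv and 2, 1 and 0 reads in Ck. The groups did not overlap, and Gv3 was again the highest library. The pooled ratio was 70.6-fold, with a wide counting interval of 23.8 to 345 that reflects the 3 control reads. In edgeR's test the log2 fold change was 5.98 ± 1.32 (SE) with an adjusted p of 0.428 without the block and 5.84 with an adjusted p of 0.0528 with it, so the gene was not called in either. DESeq2 called it (adjusted p = 0.000119). Its log2 fold change was 4.37 without Gv3 (adjusted p = 0.150) and 3.83 without both libraries of the number 3 (adjusted p = 0.0566), both by edgeR without the block.

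The other tested GDSL genes had small differences or a lower mean in Gv. Cs6g17290, a GDSL esterase/lipase by its hit, had 45, 35 and 66 reads in Gv and 113, 124 and 55 reads in Ck. Gv1 and Gv2 lay below all the controls, but Gv3 was above Ck3, so the groups overlapped. Its log2 fold change was -0.97 ± 0.40 (SE) with an adjusted p of 1.00 in edgeR's test, and with the block the adjusted p was 0.627. Without both libraries of the number 3 it was -1.56 with an adjusted p of 0.0304. That set of 4 libraries, chosen after seeing the data, called 2 members higher (1.02% of the genes tested there) and this gene alone lower (0.239%). The remaining 5 tested GDSL genes had log2 fold changes from -0.18 to 0.54.

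The summed level of the 14 GDSL genes was 53.0, 54.3 and 279 RPKM in Gv1, Gv2 and Gv3 and 35.0, 35.6 and 29.5 in Ck1, Ck2 and Ck3. All 3 Gv sums exceeded the Ck sums, and Cs4g06810 alone made up 63.1% of the group's level over the 6 libraries. Without that gene the sums were 25.2, 22.6 and 41.6 RPKM in Gv and 34.5, 34.2 and 21.5 in Ck, which overlapped. The log2 ratio of the group means was 1.95 with the gene and -0.01 without it. The median log2 fold change of the tested GDSL genes was 0.22, with 4 above 0 and 4 below, and it was -0.13 without both libraries of the number 3.

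**Figure D2:**
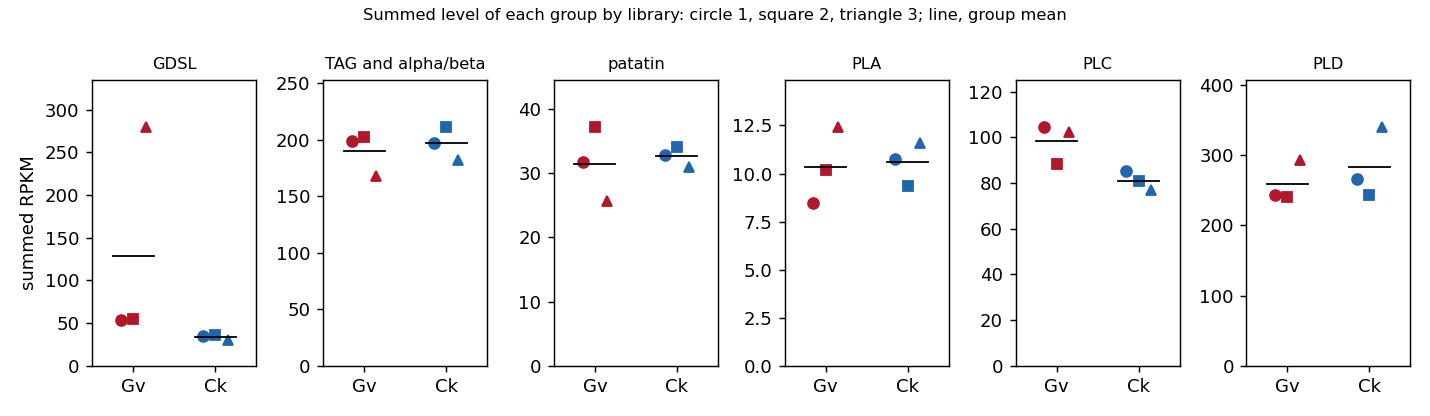
The summed RPKM of the members of each group is plotted for every library, with circles, squares and triangles for the replicate numbers 1, 2 and 3 and a line at the group mean. Only in the GDSL and phospholipase C panels do all Gv points lie above all Ck points, and the GDSL mean in Gv of 129 RPKM is set by the single library at 279.

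Among the 20 triacylglycerol and alpha/beta lipases, which cleave storage and signalling acylglycerols, 1 gene was read in colonized roots alone. Cs2g20450, with a hit to triacylglycerol lipase 2-like of strawberry, had 34, 75 and 401 reads in Gv and 0, 0 and 0 reads in Ck. It was thus at least 174-fold higher in Gv, measured against a floor of 3 reads over the control group. Gv3 held most of its reads, at 30.9 RPKM against 2.59 and 5.43 in Gv1 and Gv2. It was called with the replicate block in edgeR's test (adjusted p = 0.0144), and DESeq2 gave an adjusted p of 0.000120. Without the block the adjusted p was 0.552 with all libraries, 0.144 without Gv3 and 0.0457 without both libraries of the number 3.

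Cs1g22570, a putative triacylglycerol lipase described here after its values were seen because it is the one tested member whose libraries all lay lower in Gv, had 6, 9 and 5 reads in Gv against 23, 54 and 11 in Ck. The Gv libraries were close to each other, while the Ck libraries spread widely, with a level of 1.82 ± 1.33 RPKM (SD, n = 3). Its log2 fold change of -2.10 ± 0.65 (SE) was not called by edgeR without the block (adjusted p = 0.741) or with it (adjusted p = 0.154).

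Monoglyceride lipases, which free the last fatty acid from monoacylglycerol, were led by Cs7g28220, the highest gene of the group. It had 52.1, 58.2 and 17.7 RPKM in Gv and 63.9, 65.8 and 39.2 RPKM in Ck. The library of the number 3 was the lowest in both groups, Gv1 and Gv2 lay between the control values, and edgeR's log2 fold change was -0.41 ± 0.46 (SE), with an adjusted p of 1.00. Each Gv library was below the control of its number, and with the block the log2 fold change was -0.54 (95% interval -1.04 to -0.04) with an unadjusted p of 0.0399 and an adjusted p of 0.524. The other monoglyceride lipases tested were named after their values were seen. Cs4g19250 had a log2 fold change of 0.40, and Cs2g06500, Cs7g25600, Cs6g18650 and orange1.1t04195 had -0.13, 0.06, -0.02 and -0.09, none of them called.

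Cs9g04730, a lipase-like gene, was at 18.3, 18.2 and 17.4 RPKM in Gv and at 17.0, 17.8 and 52.7 RPKM in Ck. A single control library, Ck3, set its log2 fold change of -0.69, which was 0.01 without that library. The rest of the group, 11 genes beside the ones named, had 9 genes with enough reads. Their log2 fold changes ran from -0.26 to 0.42. The summed level of the 20 genes was 199, 203 and 168 RPKM in Gv and 198, 211 and 182 RPKM in Ck, so the groups overlapped.

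**Figure D3:**
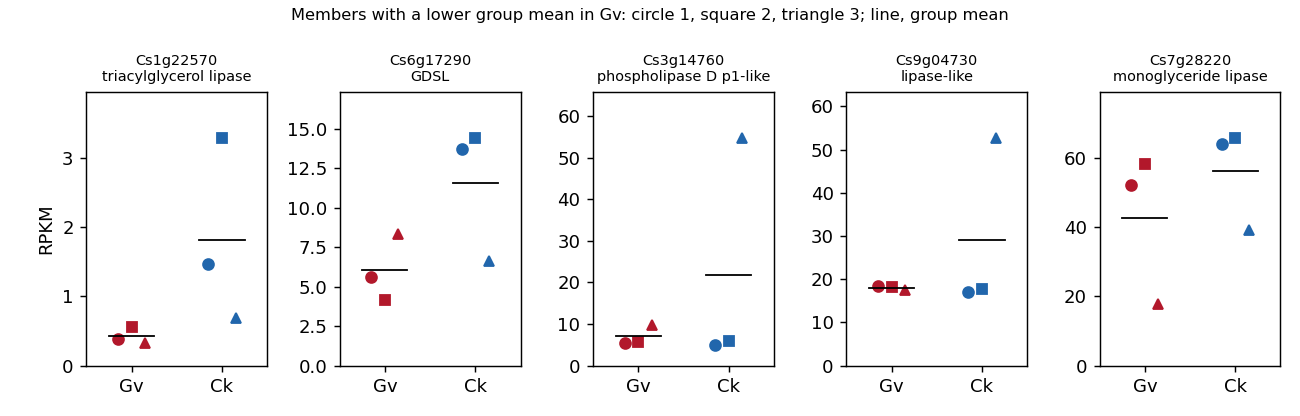
RPKM is plotted on a linear axis for 5 members with a lower mean in Gv than in Ck, with circles, squares and triangles for replicate numbers 1, 2 and 3 and a line at the group mean. Cs3g14760 and Cs9g04730 owe the higher control mean to the single triangle of Ck3, at 54.8 and 52.7 RPKM.

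PtrLipase3 (Cs2g28830) is the lipase gene whose promoter the study fused to a reporter in Medicago truncatula roots, and it is not among the 60 members because its listed hit is a hypothetical protein of peach. It is described beside them because the study followed it by that promoter assay, and its function as a lipase was not tested there. In that assay the study reported arbuscule-enriched reporter activity for PtrLipase3, as for the other promoters it chose. The primers designed to amplify its promoter are shown, in lower case and 5′ to 3′, because they mark the sequence that the study tested.
pPtrLipase3F: agatttggggttaacgactgatagg
pPtrLipase3R: ggcttgtaagttgtatcaggttg

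PtrLipase3 had 88, 75 and 447 reads in Gv and 0, 0 and 0 reads in Ck. All Gv libraries were above all Ck libraries, and the gene was at least 208-fold higher in Gv against a floor of 3 reads over the control group. EdgeR's adjusted p was 0.408 without the block, 0.0116 with it and 0.0430 without Gv3, and DESeq2 gave 1.36e-09.

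The lipases read mainly in colonized roots had their highest value in Gv3. The level in Gv3 over the mean of Gv1 and Gv2 was 7.99-fold for Cs4g06810, 7.32-fold for Cs6g19840, 7.71-fold for Cs2g20450 and 5.68-fold for PtrLipase3. A pair of phosphate transporter genes that the study places with PT4, the transporter of the membrane around arbuscules, was also highest in Gv3. Cs7g29450 had 839, 983 and 5257 reads in Gv and 2, 1 and 0 reads in Ck, a 6.00-fold higher level in Gv3 than in Gv1 and Gv2. Cs9g18560 had 347, 377 and 2220 reads in Gv and 0, 0 and 0 reads in Ck, with a ratio of 6.37. These ratios rest on a single library, and the part of colonization in them was not tested. Cs4g06810 differed from the others in the controls, where Ck3 stood 8.37-fold above the mean of Ck1 and Ck2, while both transporter genes had 0 reads in Ck3.

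**Figure D4:**
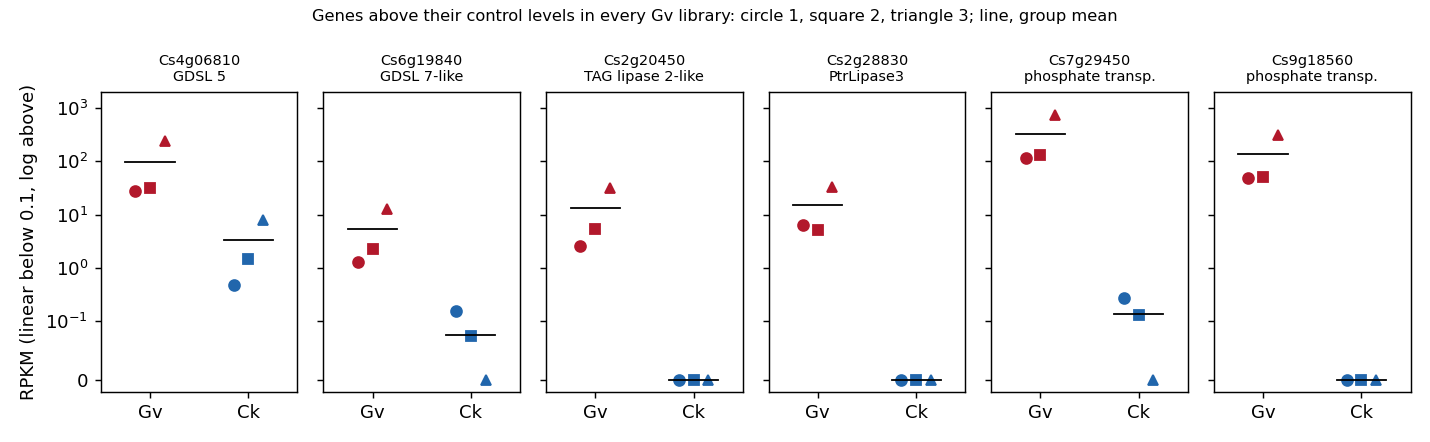
RPKM per library is plotted, on an axis that is linear below 0.1 and logarithmic above, for 3 lipases, PtrLipase3 and the 2 phosphate transporter genes, with circles, squares and triangles for replicate numbers 1, 2 and 3 and a line at the group mean. Gv3 is the highest library in all 6 panels, and only Cs4g06810 has control libraries above 1 RPKM.

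Of the 4 phospholipase C genes tested, 3 had a log2 fold change above 0, and none was called. Cs8g20090, a phospholipase C by its hit to Arabidopsis thaliana, had 300, 347 and 482 reads in Gv and 214, 251 and 260 reads in Ck. The groups did not overlap, at 20.6 ± 5.59 RPKM (SD, n = 3) in Gv and 12.8 ± 1.17 in Ck. EdgeR's log2 fold change was 0.68 ± 0.20 (SE) with an unadjusted p of 0.0143 and an adjusted p of 0.709, or 0.201 with the block. The highest gene of the group, orange1.1t02582 (phospholipase C 3-like), was at 56.6, 41.7 and 42.7 RPKM in Gv and 43.2, 32.3 and 29.8 in Ck. Each Gv library was above the control of the same number, but Gv2 and Gv3 lay just under Ck1, and the log2 fold change of 0.41 ± 0.21 (SE) was not called (edgeR, adjusted p = 1.00).

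Cs8g20240, a phosphoinositide phospholipase C, the kind that cleaves the inositol phospholipids of signalling membranes, had 29.8, 27.3 and 31.6 RPKM in Gv and 30.2, 34.9 and 32.1 in Ck. The values overlapped, with a log2 fold change of -0.14 and a 95% interval of -0.47 to 0.18. Each Gv library was below the control of its number, and the blocked log2 fold change was -0.14 with an adjusted p of 0.824 in edgeR's test. Its neighbour by number, Cs8g20250, named after its values were seen, had 3 to 15 reads in every library. The summed level of the 5 phospholipase C genes was 104, 88.1 and 102 RPKM in Gv and 85.1, 80.7 and 76.9 in Ck, without overlap. The log2 ratio of the mean sums was 0.28, and 0.16 without orange1.1t02582. Without that gene the sums were 47.7, 46.4 and 59.7 RPKM in Gv and 42.0, 48.4 and 47.1 in Ck, which overlapped.

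Over all tested members, 4 had every Gv library above every Ck library in RPKM (5.35% of all genes tested), namely Cs4g06810, Cs6g19840, Cs2g20450 and Cs8g20090. Cs1g22570 was the 1 member below in every library (3.26% of all genes). Of the 44 members tested these made up 9.09% and 2.27%.

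The member with the highest level was a phospholipase D, and no phospholipase D was called by edgeR. Cs1g12600, a phospholipase D alpha, the abundant class that makes phosphatidic acid in many plant tissues, was at 159, 149 and 192 RPKM in Gv and 176, 151 and 179 in Ck. Its mean of 168 RPKM ranked at the 99.0 percentile of all genes with a read and made up 61.8% of the group's level. The groups overlapped, and edgeR's log2 fold change was -0.03 with a 95% interval of -0.48 to 0.43. The beta gene orange1.1t01286 was at 25.2, 25.7 and 32.3 RPKM in Gv and 24.8, 25.7 and 34.1 in Ck. Both libraries of the number 3 were the highest of their groups, and the log2 fold change was -0.03 with a 95% interval of -0.46 to 0.40.

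The other phospholipases D included 1 gene with a single high control. Cs3g14760, with a hit to phospholipase D p1-like of strawberry, had 184, 202 and 329 reads in Gv and 171, 210 and 1914 reads in Ck. Ck3 stood 10.2-fold above the mean of Ck1 and Ck2, and the other 5 libraries held between 171 and 329 reads. The log2 fold change of -1.62 ± 0.93 (SE) was not called by edgeR (adjusted p = 1.00) and was 0.34 without Ck3. It was the member that the NOISeq criterion counted as lower, and DESeq2 gave it neither an unadjusted nor an adjusted p. Cs7g06400 (phospholipase D Z), described after its values were seen, was also highest in Ck3, at 20.6 RPKM against 8.73 to 12.3 in the other libraries.

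Cs3g26720, a phospholipase D delta-like gene, had 26, 27 and 28 reads in Gv against 19, 29 and 7 in Ck. Only Ck3 was well below the others, and its log2 fold change of 0.58 had a 95% interval of -0.57 to 1.73. The gamma gene Cs5g10090, the delta gene Cs1g26100 and the zeta gene Cs9g03790, named after their values were seen, had log2 fold changes of -0.20, -0.04 and 0.05. In Arabidopsis thaliana the zeta class, to which the p1 enzyme belongs, takes part in the response to low phosphate. By their hits Cs9g03790 and Cs3g14760 fall in it, and the hit of Cs7g06400, phospholipase D Z, may name the same class. Cs9g03790 lay between 2.08 and 2.64 RPKM in the 6 libraries. Cs3g14760 lay between 4.95 and 9.89 RPKM in all but Ck3, where it was at 54.8. Cs7g06400 lay between 8.73 and 12.3 RPKM in all but Ck3, where it was at 20.6. The summed level of the 9 genes was 244, 241 and 293 RPKM in Gv and 266, 243 and 340 in Ck, and 238, 235 and 283 against 261, 237 and 285 without Cs3g14760.

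Patatins, acyl hydrolases first known from potato tubers, showed no called difference. Cs7g27190 led them with 20.3, 19.5 and 12.9 RPKM in Gv and 21.7, 21.1 and 10.7 in Ck. The library of the number 3 was low in both groups, and the log2 fold change was -0.04 with a 95% interval of -0.83 to 0.75. Cs2g11280 and Cs2g11290 follow each other in the numbering and share the wording of their hit, so reads may be lost or split between them. Their log2 fold changes were 0.17 and -0.13, with 23, 41 and 39 against 19, 29 and 46 reads for the former and 16, 25 and 11 against 15, 15 and 28 reads for the latter. The 4 patatins without enough reads had at most 10 reads in any library.

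Phospholipases A were the lowest group, with a summed level of 8.48, 10.2 and 12.4 RPKM in Gv and 10.8, 9.35 and 11.6 in Ck, which overlapped. Cs5g18580, a secretory phospholipase A2 alpha, had 41, 63 and 72 reads in Gv and 76, 58 and 95 reads in Ck. Cs4g13460, a phospholipase A2 beta, had 25, 27 and 28 against 20, 27 and 17. The former was lower on average and the latter higher, with log2 fold changes of -0.34 (95% interval -0.995 to 0.31) and 0.35 (95% interval -0.30 to 0.999). Cs9g08120, whose hit is a chloroplast phospholipase A1, had 45, 37 and 57 reads in Gv against 36, 35 and 39 in Ck. Each Gv library exceeded the control of its number, the groups overlapped, and the log2 fold change was 0.38 with a 95% interval of -0.20 to 0.95.

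By group, the median log2 fold change was 0.22 for GDSL genes, 0.02 for triacylglycerol and alpha/beta lipases, -0.04 for patatins, 0.35 for phospholipases A, 0.47 for phospholipases C and -0.04 for phospholipases D. These medians rest on 8, 18, 3, 3, 4 and 8 tested genes and are set beside -0.01 for all genes. With the replicate block they were 0.16, 0.00, 0.00, 0.36, 0.50 and -0.03. Without both libraries of the number 3 the GDSL median was -0.13 and the patatin median 0.41, so both turned in sign.

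Deviations tied to the replicate number were also seen among the members. Of the 44 tested, 31 (70.5%) deviated in the same direction in Gv3 and in Ck3 from the other libraries of their group, against 71.4% of all genes. These counts use reads scaled by the TMM factors with 0.5 reads added. In Gv3, 5 members were at least 2-fold above the mean of Gv1 and Gv2 (5.46% of all genes), 4 of them GDSL genes, and 3 were at least 2-fold below (6.58%). In Ck3, 4 members were at least 2-fold above the mean of Ck1 and Ck2 (5.75%) and 10 were at least 2-fold below (11.2%). By plain RPKM ratios the counts were 5 and 3 in Gv3 and 5 and 8 in Ck3. The labels do not say what the number stands for.

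**Figure D5:**
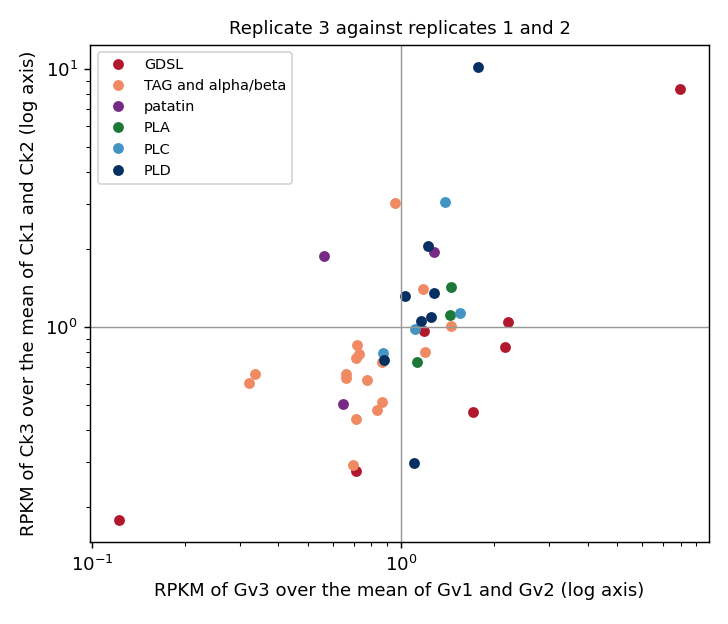
For 42 of the 44 tested members, the RPKM of Gv3 over the mean of Gv1 and Gv2 is plotted against the RPKM of Ck3 over the mean of Ck1 and Ck2, on log axes, with lines at 1 and colours for the groups. Cs4g06810 lies at the upper right, at 7.99 and 8.37, Cs3g14760 lies at the top with 10.2 in Ck, and Cs6g19840 and Cs2g20450, with 0 reads in Ck3, have no place on the axes.

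Neighbouring steps of lipid metabolism were counted by lists built from the wording of the hits. Over all genes tested, edgeR called 0% without the block, and 0.958% higher and 0.0369% lower with it. Its unadjusted p without the block was under 0.05 for 3.0% higher and 1.57% lower. DESeq2 called 1.15% higher and 0.0301% lower, and the NOISeq criterion 1.35% and 0.323%. A list meant for the fatty acid supply to the fungus held 9 genes, some of them 1-acyl-sn-glycerol-3-phosphate acyltransferases matched by wording alone. It lacked Cs5g01990 and Cs1g21320 (PtrFatG), which the study links to this supply, so its counts do not describe that pathway. Of the 9 genes, 7 were tested, 3 with a log2 fold change above 0 and 4 below, and 1 was called higher with the block. That gene, Cs6g20410, named after its values were seen like the others of these lists, has a hit to glycerol-3-phosphate acyltransferase 6, an enzyme that loads acyl groups on glycerol phosphate, and had 80, 77 and 569 reads in Gv against 0, 0 and 0 in Ck (edgeR with the block, adjusted p = 0.00983). A second acyltransferase gene of this list, orange1.1t00375 (glycerol-3-phosphate acyltransferase 8), had 175, 153 and 162 reads in Gv against 241, 226 and 567 in Ck. All its Gv libraries lay below all Ck libraries, and its log2 fold change of -1.03 had an unadjusted p of 0.0259 and an adjusted p of 0.889 in edgeR's test, or 0.375 with the block, and was -0.49 without Ck3. All 8 genes for fatty acid activation and beta-oxidation, the route that burns freed fatty acids, were tested and 0 were called with or without the block by edgeR, with 1 higher and 1 lower at an unadjusted p under 0.05 and 0 called by DESeq2 or the NOISeq criterion. Cs3g19600, a long chain acyl-CoA synthetase 9 that activates fatty acids, had 35, 56 and 212 reads in Gv against 32, 17 and 22 in Ck and was not called (adjusted p = 0.849 in edgeR's test). The gene on the lower side, Cs2g16010 (acyl-CoA oxidase 3), had 150, 185 and 169 reads in Gv against 241, 442 and 216 in Ck. All its Gv libraries lay below all Ck libraries. Its log2 fold change of -0.81 was not called (edgeR, adjusted p = 0.954, or 0.371 with the block).

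Oxylipin genes, which turn freed polyunsaturated fatty acids into jasmonate and related signals, had 15 of 17 genes tested and 0 called with or without the block by edgeR, with 1 lower at an unadjusted p under 0.05, 0 by DESeq2 and 1 lower by the NOISeq criterion. Of the 15, 13 had a log2 fold change below 0, against 8473 of all 16281 genes tested. The median of the 15 was -0.29, against -0.01 for all genes, and no test was run on the list as a set. Genes for phosphatidic acid and diacylglycerol turnover, the products of phospholipases D and C, had 12 of 14 tested, a median of -0.12 and 0 called by edgeR, DESeq2 or the NOISeq criterion, with 0 at an unadjusted p under 0.05. A list of 40 genes with a lipase only in the text of their pathway annotation, built after seeing the files, had 27 tested, a median of -0.07 and 0 called by edgeR, DESeq2 or the NOISeq criterion, with 1 lower at an unadjusted p under 0.05. Some of these genes have hits of another kind, such as putative transposases, an elongation factor and a transcription factor. The values of this list therefore do not describe lipases alone.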

How the data were processed

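The authors cleaned the reads of the 6 libraries and mapped them with SOAPaligner/SOAP2, at up to 2 mismatches, on the genome of sweet orange (Citrus sinensis). For every gene they deposited the raw count of its uniquely mapped reads. The RPKM deposited beside it scales that count by gene length and by all reads on genes. The annotation release and the use of strand are not given in the sources used here, and reads from genes of another sequence than C. sinensis, near-identical copies or the fungus could be lost or split. The tables were joined on the gene identifier, and a gene not listed for a library was taken as 0 reads. The deposited coverage column was not used.

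Members and groups were set by the wording of the protein hit, and a hit spelled "phopholipase d alpha" was put with the phospholipases D. The members and lists were chosen with earlier results of these data known. Counts were tested for Gv against Ck with edgeR 4.0.16 in R 4.3.3 (expression filter, TMM factors, quasi-likelihood test, Benjamini-Hochberg over 16281 genes). Calls needed an adjusted p under 0.05 and a difference of 1 or more on the log2 scale. Standard errors were derived from the F value. Fitted folds of genes with 0 reads in a group depend on the prior count, so a bound against 3 reads over that group is given instead. Alternatives were DESeq2 1.42.0, other scalings and filters, no fold limit, limma 3.58.1 on log2(RPKM + 0.5) or log2(RPKM + 0.1), the replicate block, each library or number left out, and the authors' NOISeq criterion, re-implemented in Python 3.11.15 with a probability of at least 0.8 and a 2-fold change. Over all genes the re-implemented criterion called 304 higher and 73 lower in Gv, more in each direction than the study reported. Its calls are therefore not those of the study. The edgeR fit and the NOISeq criterion were tested on simulated data, the latter without a shift of the libraries of the number 3. That simulation does not bear on calls set by those libraries.

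Same-numbered Gv and Ck libraries deviated together from their group means across genes, with r of 0.350, 0.474 and 0.609 for numbers 1, 2 and 3, all over the limit of 0.1, and the numbers were therefore treated as pairs. The pairing comes from the data and not from the labels, and the crossed pairs Gv1 with Ck2 (0.422) and Gv2 with Ck1 (0.269) also passed the limit. Deviations from a group mean cancel within the group, so a shared shift of number 3 alone can give such values. The limit therefore could not decide whether the numbers 1 and 2 are pairs. The common coefficient of variation was 29.9% without the block and 16.7% with it.

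The genes named are members called with or without the block, PtrLipase3, the 2 highest members of each group by RPKM, the members with the largest and smallest log2 fold change in each group at a mean count of at least 20, members with at least 20 reads in one group and 0 in the other, and members whose groups do not overlap at a log2 fold change of at least 1. Other members and genes of the neighbouring lists are marked where they appear, and the text also gives the phosphate transporter genes that the study assigns to PT4.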

Additional observations from a re-analysis of the deposited data

How the results depend on the processing

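Against 0 members called higher by edgeR without the block, DESeq2 and the NOISeq criterion called 3, the replicate block called 2, and the block called 3, 2 and 2 without both libraries of replicate 1, 2 and 3. Without both libraries of the number 3 and with no block, a setting added after seeing the data, 2 were called. Against 0 called lower, the NOISeq criterion, the block without both libraries of replicate 3 and the unblocked fit without them each called 1. With any single library left out both counts ranged from 0 to 0. The other scalings, the other filters and limma also called 0 in both directions, and the block changed the call of no other member.

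For PtrLipase3 the log2 fold change passed the threshold at 10.16 in DESeq2, 6.71 in limma on log2(RPKM + 0.1), 8.74 in the NOISeq criterion, 10.72 with the replicate block, 11.09, 11.11 and 9.36 with the block and without replicates 1, 2 and 3, and 9.36 without the number 3 and no block. With 1 library left out it ranged from 9.37 to 11.10, and it was past the threshold without Gv3 alone. These sizes depend on the prior count, since the controls had 0 reads.

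The sign of the log2 fold change turned in at least 1 setting for 8 named genes, none of them called by edgeR, while Cs3g14760 was counted as lower by the NOISeq criterion. With the block and without replicate 3 it was 0.43 for Cs2g11290, 0.025 for Cs3g14760 and 0.039 for Cs9g04730, and without the number 3 and no block it was 0.45, 0.021 and 0.038. With the block and without replicate 2 it was 0.0061 for Cs8g20240, 0.0010 for Cs1g12600 and 0.11 for Cs7g27190, and without replicate 1 it was 0.0013 for Cs1g12600 and 0.032 for Cs7g27190. Cs7g27190 was also at 0.0016 with the replicate block and at 0.018 and 0.016 in limma on log2(RPKM + 0.1) and log2(RPKM + 0.5). Leaving out 1 library gave -2.09 to 0.34 for Cs3g14760 and -0.96 to 0.014 for Cs9g04730, where the upper ends are without Ck3. It gave -0.13 to 0.050 for Cs1g12600, -0.090 to 0.53 for Cs2g11280, -0.44 to 0.22 for Cs2g11290, -0.31 to 0.15 for Cs7g27190 and -0.15 to 0.10 for orange1.1t01286. The median of the GDSL genes was -0.13 without the libraries of the number 3, with or without the block, and -0.032 to 0.32 with 1 library left out. The median of the patatins was -0.54 with no filter and 0.40 and 0.41 without the number 3, with and without the block. That of the phospholipases A was 0.52 and 0.15 with the block and without replicates 2 and 3, 0.15 without the number 3 and no block, and 0.19 to 0.37 with 1 library left out. That of the phospholipases C was 0.32 with the block and without replicate 1, and 0.35 to 0.55 with 1 library left out. The log2 ratio of summed levels without the highest gene was -0.013 for GDSL genes, 0.37 for phospholipases A and 0.16 for phospholipases C, and 0.68 to 2.32 for GDSL genes with 1 library left out, the lower end without Gv3. The cause of these shifts was not tested.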

Other observations

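Precision was limited by 3 libraries a group and by the number 3, which moved members in both groups. Members under about 20 reads could not show small differences. Sets of genes with consecutive numbers among the members, such as Cs9g03770 with Cs9g03780, Cs7g28220 with Cs7g28230 and Cs8g20240 with Cs8g20250, are uncertain. Reads that match similar neighbours alike are lost from counts of uniquely mapped reads, and sense and antisense reads cannot be told apart. Protein and promoter sequences of the members were not analysed here.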
